A study of Mus musculus with 9 samples.

Results

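The transcripts of 9 enzymes that make pyrimidine nucleotides and deoxynucleotides were examined in whole osteosarcoma (OS) tumors of genetically engineered mouse models (GEMMs). The genes are Cad, Dhodh, Umps, Ctps, Rrm1, Rrm2, Tyms, Tk1 and Dut. They were taken by their symbols from the deposited table of read counts, where they are 9 of 55367 genes, and all 9 had enough reads to be tested. RNA-Seq was available for 4 p53-driven and 5 Myc-knockin tumors. The p53-driven tumors carry the genotype label Col2.3-Cre/TrpP53fl/+, which stands for a Cre recombinase under an osteoblast-specific promoter and 1 floxed copy of Trp53. The Myc-knockin tumors are labeled Cre-Lox-Stop-Lox with (LSL)-c-MycT58A and p53fl/+. They add a Myc allele with the T58A substitution, silent until Cre removes a stop cassette. Both groups therefore share the Cre and the floxed Trp53 allele, and the labels give no age for any tumor. The paper reports a much shorter median time to sacrifice for the Myc-knockin than for the p53-driven mice. Age may therefore differ between the groups and cannot be told apart from genotype. The RNA came from whole tumors, so it also holds the RNA of the host's blood, immune, vessel and muscle cells. Tumors are named by their columns, with F for the p53-driven and M for the Myc-knockin group.

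Cells make the pyrimidine ring from glutamine, bicarbonate and aspartate. CAD, a protein that holds the first 3 enzymes of the pathway, closes the ring precursor, DHODH in the inner mitochondrial membrane oxidizes it to orotate, and UMPS turns orotate into UMP. CTP synthase then converts UTP to CTP. Ribonucleotide reductase, built of the large subunit RRM1 and the small subunit RRM2, removes an oxygen from ribonucleotides to give the building blocks of DNA. For thymidine, DUT breaks down dUTP to dUMP, which keeps uracil out of DNA and feeds TYMS, the enzyme that methylates dUMP to dTMP, while TK1 salvages thymidine. Several of these genes are transcribed mainly in dividing cells, and several are known targets of MYC or of E2F factors.

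The promoters of 4 of these genes are shown. Dut was chosen as the member that passed the test between the genotypes. Tyms held the only copy of the MYC E-box found in the members' promoter windows. Rrm1 and Rrm2 encode both subunits of 1 enzyme. The sequences are those of RefSeq on GRCm38.p6, which is mm10, and run 5′ to 3′ from base -120 to base -41 before the annotated start. Capitals mark the E-box CACGTG, the CCAAT box and the GC box GGGCGG, each searched on both strands.
Tyms, chr5:30073666-30073745, minus strand: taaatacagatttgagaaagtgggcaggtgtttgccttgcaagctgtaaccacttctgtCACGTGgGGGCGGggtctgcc
Dut, chr2:125247395-125247474, plus strand: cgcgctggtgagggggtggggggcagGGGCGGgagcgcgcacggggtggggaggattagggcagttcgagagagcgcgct
Rrm1, chr7:102441575-102441654, plus strand: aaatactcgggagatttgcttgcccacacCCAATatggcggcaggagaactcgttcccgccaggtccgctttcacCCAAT
Rrm2, chr12:24708134-24708213, plus strand: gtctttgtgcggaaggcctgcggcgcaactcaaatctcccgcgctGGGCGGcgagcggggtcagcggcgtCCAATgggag

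The E-box of Tyms starts 61 bases before the start site and lies next to a GC box at -54. No other member with a promoter window held CACGTG between 250 bases before and 50 bases after its start. Bases outside this window were not searched. Of all 32851 promoter windows of that length 7.15% held it, and of the windows of genes tested here 9.65% did. Windows were given for 8 of the 9 members, all but Dhodh. The CCAAT box stood in Rrm1, at -91 and -45, and in Rrm2, at -50, and it stood in 37.4% of all windows. The GC box stood in 7 of the 8 members, all but Rrm1, against 35.7% of all windows and 60.6% of the windows of genes tested here. None of the 8 held TTTCCCGC, TTTGGCGC, TTTCGCGC or TTTGCCGC, which are spellings of the E2F site. At least 1 of them stood in 2.26% of all windows and in 3.73% of the windows of genes tested here. In the GENCODE annotation the stretch shown for Dut lies within the gene, with 7 of its 80 bases in the first coding exon of 1 isoform and the rest in an intron, while the stretches of Tyms, Rrm1 and Rrm2 lie outside their genes. These matches describe letters, and binding was not measured.

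The libraries differed in depth and make-up. Total counts ranged from 2716322 to 17073285 per tumor. In 4 libraries, F187, M351, M408 and M9, between 23.2% and 81.0% of the counts fell on 12 satellite-repeat genes, against at most 0.0242% in the other 5, which left 671790 counts for all other genes in M9 and 872935 in M351. Reads on chemosensory receptor genes, used here as a measure of background, came to 1.23 per kilobase of exon in M9 and 1.11 in M351, and to at most 0.0407 in the libraries without satellite reads. M624 and M664 stood apart in another way, with 5.33 and 9.32 CPM of the small nuclear RNA Rn7sk (relative to counts outside the satellite genes) against at least 8858 in the other 7. Myc was at 43.5 to 67.1 CPM in the p53-driven tumors and at 144 to 1045 CPM in the Myc-knockin tumors. A gene was called where its adjusted p was below 0.05 and its fold change exceeded 1.5. By this rule edgeR called 348 of 15365 genes tested as higher with the Myc knockin and 461 as lower (5.27% in either direction). Upper-quartile scaling gave 626 higher and 345 lower, and DESeq2 gave 1549 and 1121. All values below are TMM-normalized CPM unless stated, where 3 reads correspond to 0.114 CPM in the deepest library and to 2.39 CPM in M9.

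Cad, Dhodh and Umps encode the enzymes that build the pyrimidine ring up to UMP, and none of the 3 passed the test. Cad (chromosome 5, 31054780 to 31078479) had 79.4, 79.1, 73.2 and 82.1 CPM in F187, F325, F331 and F368. It had 115, 133, 66.1, 238 and 157 CPM in M351, M408, M9, M624 and M664. The p53-driven tumors were nearly level, and 4 of 5 Myc-knockin tumors lay above all of them, while M9 lay below all of them. The means were 78.4 ± 3.75 (SD, n = 4) and 142 ± 63.3 (SD, n = 5), with a log2 fold change of 0.86 (standard error 0.34, edgeR adjusted p = 0.137). In bulk RNA such values cannot tell apart a change in the number of cells that express a gene from a change in the RNA per cell.

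Dhodh (chromosome 8, 109591343 to 109608673) was the scarcest member, with 7.90, 3.81, 3.89 and 2.80 CPM in F187, F325, F331 and F368. Its levels in M351, M408, M9, M624 and M664 were 6.16, 10.3, 14.3, 30.6 and 33.7 CPM. M351 lay below F187, and the other 4 Myc-knockin tumors lay above every p53-driven tumor. The log2 fold change of 2.12 was the largest among the 9 genes (standard error 0.56, edgeR adjusted p = 0.0509). The low values rest on few reads, since M351 had 10 reads where its background predicts 7.02, M9 had 18 against 7.75, and F187 had 20 against 4.42. Without the 4 libraries that hold satellite reads, the log2 fold change of Dhodh was 3.21 (standard error 0.33, edgeR adjusted p = 0.00517), and without M624 and M664 it was 1.24 (standard error 0.48, edgeR adjusted p = 0.147).

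Umps (chromosome 16, 33954782 to 33967038) separated the genotypes completely. Its levels were 20.1, 18.4, 24.9 and 19.3 CPM in F187, F325, F331 and F368 and 33.9, 48.2, 29.5, 95.3 and 55.3 CPM in M351, M408, M9, M624 and M664. The lowest Myc-knockin tumor, M9, was above the highest p53-driven tumor, F331. The log2 fold change was 1.35 (standard error 0.36), and the edgeR adjusted p of 0.0510 missed the threshold. An antisense transcript, Gm15829, overlaps 213 exon bases of Umps, or 6.11% of them, and the strand setting of the counting is not given in the sources used here.

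Ctps (chromosome 4, 120539868 to 120570276) encodes CTP synthase, and its levels were 39.5, 39.5, 27.3 and 39.8 CPM in F187, F325, F331 and F368. The Myc-knockin tumors had 76.9, 85.2, 32.7, 129 and 74.2 CPM in M351, M408, M9, M624 and M664. M9 lay within the p53-driven range, and the other 4 were above it. The log2 fold change was 1.13 (standard error 0.35, edgeR adjusted p = 0.0777). Ctps2, the second CTP synthase gene, had 11.1 to 29.7 CPM in the p53-driven and 10.3 to 30.3 CPM in the Myc-knockin tumors, with a log2 fold change of -0.03 (standard error 0.39, edgeR adjusted p = 0.974). Within each tumor the log2 ratio of Ctps to Ctps2 was 1.03 ± 0.87 (SD, n = 4) in the p53-driven and 2.03 ± 1.10 (SD, n = 5) in the Myc-knockin group, a difference of 0.99 (two-sided exact permutation test, p = 0.175, and 0.233 after Benjamini-Hochberg adjustment over 4 ratios).

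The subunits of ribonucleotide reductase had the smallest differences of the set, and neither was called. Rrm1 (chromosome 7, 102441695 to 102469771) was at 63.2, 71.1, 59.2 and 99.8 CPM in F187, F325, F331 and F368 and at 78.8, 122, 69.3, 167 and 93.1 CPM in M351, M408, M9, M624 and M664. Only M408 and M624 exceeded the highest p53-driven tumor, F368. Its log2 fold change was 0.53 (standard error 0.32, edgeR adjusted p = 0.303). Rrm2 (chromosome 12, 24708241 to 24714146) was at 41.1, 63.5, 18.9 and 33.3 CPM in F187, F325, F331 and F368. It was at 45.5, 61.5, 66.9, 93.3 and 40.6 CPM in M351, M408, M9, M624 and M664. The groups overlapped here too, since only M9 and M624 lay above F325. The log2 fold change of Rrm2 was 0.65 (standard error 0.38, edgeR adjusted p = 0.291).

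Rrm2b encodes the small subunit that p53 induces and that serves cells outside S phase. It had 13.4, 15.0, 20.6 and 15.2 CPM in F187, F325, F331 and F368 and 11.7, 17.2, 23.9, 7.43 and 8.59 CPM in M351, M408, M9, M624 and M664. M624 and M664 had the lowest CPM of the 9 tumors, but part of the reads in M351 and M9 fell within the background, which predicts 10.1 of 19 and 11.2 of 30. With 53.4% of its reads predicted as background, M351 would lie below M624 and M664 once these were taken off. Its log2 fold change was -0.26 (standard error 0.38, edgeR adjusted p = 0.699). The log2 ratio of Rrm2 to Rrm2b was 1.17 ± 0.94 (SD, n = 4) in the p53-driven and 2.22 ± 0.83 (SD, n = 5) in the Myc-knockin tumors. The difference was 1.05 (two-sided exact permutation test, p = 0.111, and 0.233 after adjustment over 4 ratios). With 4 tumors against 5, the smallest adjusted p that a single one of the 4 ratios could reach was 0.0635, so none could have passed alone. The ratio of Rrm2 to Rrm1 ran from -1.64 to -0.16 in the p53-driven and from -1.19 to -0.05 in the Myc-knockin tumors on the log2 scale, and the difference of 0.23 was smaller than the spread within either group (two-sided exact permutation test, p = 0.571, with 0.571 after adjustment).

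Dut was the one member that rose by the test. Dut (chromosome 2, 125247190 to 125258608) had 20.5, 23.9, 14.8 and 13.7 CPM in F187, F325, F331 and F368, against 51.1, 58.1, 43.0, 151 and 53.7 CPM in M351, M408, M9, M624 and M664. Every Myc-knockin tumor lay above every p53-driven tumor, with M624 far above the rest. The means were 18.2 ± 4.80 (SD, n = 4) and 71.4 ± 45.0 (SD, n = 5), and the log2 fold change was 1.98 (standard error 0.42, edgeR adjusted p = 0.0301). Without M624 and M664 it was 1.54 (standard error 0.28, edgeR adjusted p = 0.0331). It was 2.56 in the 5 tumors whose libraries lack satellite reads (standard error 0.49, edgeR adjusted p = 0.0157). The call was lost when any 1 of the p53-driven tumors was left out (edgeR adjusted p from 0.0628 to 0.133) and when libraries were scaled by size alone (0.169). Dut has a nuclear and a mitochondrial form that start from different first exons, and counts per gene do not separate them.

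Tyms (chromosome 5, 30058202 to 30073617) was at 16.2, 21.5, 11.4 and 11.4 CPM in F187, F325, F331 and F368 and at 22.8, 29.3, 28.7, 42.9 and 23.9 CPM in M351, M408, M9, M624 and M664. The groups did not overlap, but the gap between F325 and M351 was narrow. The log2 fold change was 0.97 (standard error 0.31, edgeR adjusted p = 0.0835). M351 and M9 had 37 and 36 reads, where the background predicts 6.76 and 7.46. With the predicted background reads taken off each tumor, M351 had 18.6 CPM and F325 21.5 CPM, so that the groups overlapped. The pseudogene Tyms-ps had at most 8 reads in any tumor.

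Tk1 (chromosome 11, 117815526 to 117826092) was at 13.0, 13.2, 6.92 and 14.5 CPM in F187, F325, F331 and F368. It was at 6.77, 16.5, 23.9, 46.9 and 26.2 CPM in M351, M408, M9, M624 and M664. M351 was the lowest of all 9 tumors, and the other 4 Myc-knockin tumors were above the p53-driven range. Its log2 fold change was 1.04 (standard error 0.48, edgeR adjusted p = 0.192), and the value of M351 rests on 11 reads, of which the background predicts 5.77. An overlap of 83 exon bases with the antisense gene Afmid covers 1.60% of the exons of Tk1. Tk2, the thymidine kinase of mitochondria, was at 7.23 to 12.2 CPM in the p53-driven and 4.31 to 17.0 CPM in the Myc-knockin tumors (log2 fold change 0.08, standard error 0.41, edgeR adjusted p = 0.930). The log2 ratio of Tk1 to Tk2 was 0.30 ± 0.73 (SD, n = 4) against 1.15 ± 0.77 (SD, n = 5), a difference of 0.85 (two-sided exact permutation test, p = 0.159, and 0.233 after adjustment over 4 ratios).

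**Figure D1:**
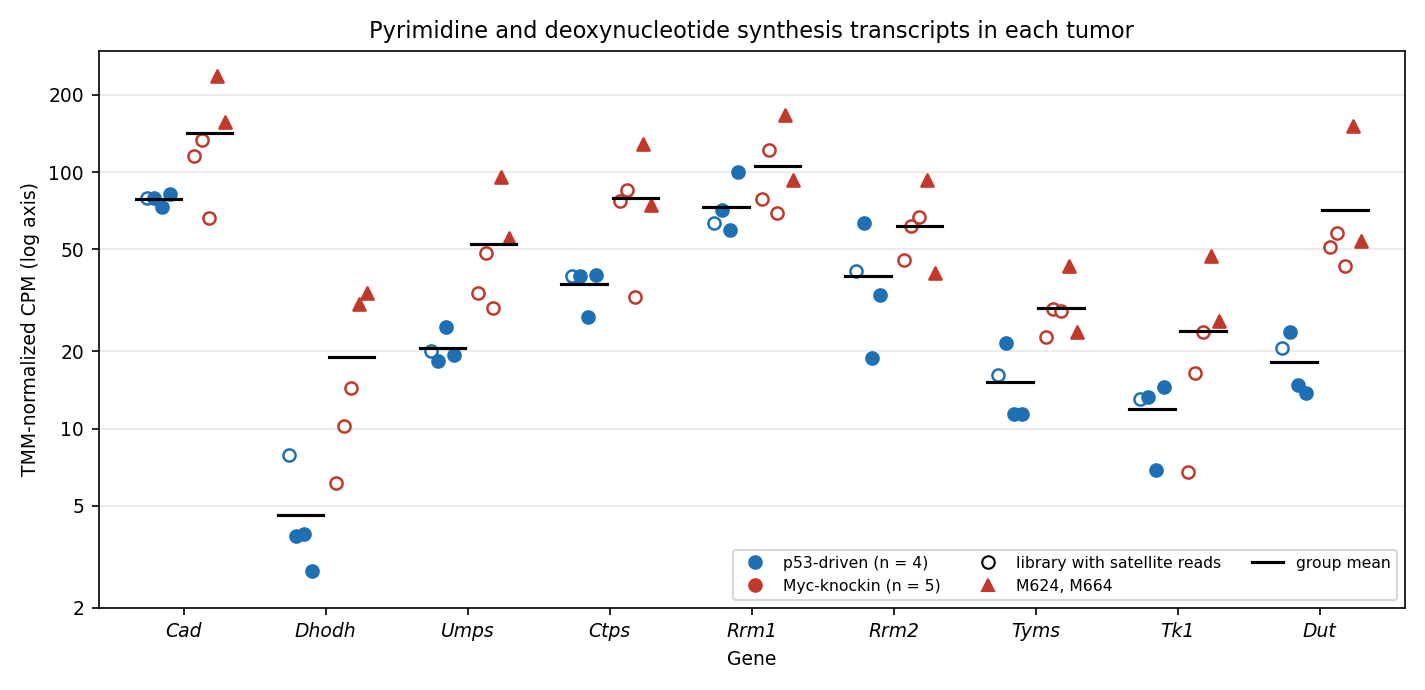
TMM-normalized CPM on a log axis for the 9 genes in each tumor, with p53-driven tumors (n = 4) in blue, Myc-knockin tumors (n = 5) in red, black lines at the group means, open circles for libraries with satellite reads and triangles for M624 and M664. Umps, Tyms and Dut do not overlap between the genotypes, and Dut runs from 13.7 to 23.9 CPM in blue and from 43.0 to 151 CPM in red.

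Over the whole set, 1 of 9 members was called higher and 0 lower, where 2.26% of the genes tested were called higher and 3% lower. At an unadjusted p under 0.05 in edgeR, 6 of 9 members were higher, where 14.9% of the genes tested were. In 3 of 9 members, Umps, Tyms and Dut, all Myc-knockin tumors lay above all p53-driven tumors, against 5.41% of the genes tested, and no member had the groups apart the other way, against 7.54%. With the predicted background reads taken off, 2 of 9 remained apart, Umps and Dut. All 9 log2 fold changes were above 0, from 0.53 for Rrm1 to 2.12 for Dhodh, with a median of 1.04 where the median of all genes tested was 0.14. The summed level of the 9 transcripts was 240.5 to 334 CPM in the p53-driven and 374 to 993 CPM in the Myc-knockin tumors.

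One tumor led the set. M624 was the highest of 9 tumors for 8 members and M664 for the other, Dhodh. Among the p53-driven tumors, F331 was the lowest of all for 4 members, Ctps, Rrm1, Rrm2 and Tyms, although F368 was level with it for Tyms. M624 and M664 are the libraries without Rn7sk, and the part of this difference in the members' levels was not tested. Without M624 and M664, Dut alone was called (where 1.8% of genes were called higher) and the members' log2 fold changes ran from 0.37 for Rrm1 to 1.54 for Dut. Without the 4 libraries with satellite reads, 6 members were called, namely Cad, Dhodh, Umps, Ctps, Tk1 and Dut, where 15.7% of genes were called higher.

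**Figure D2:**
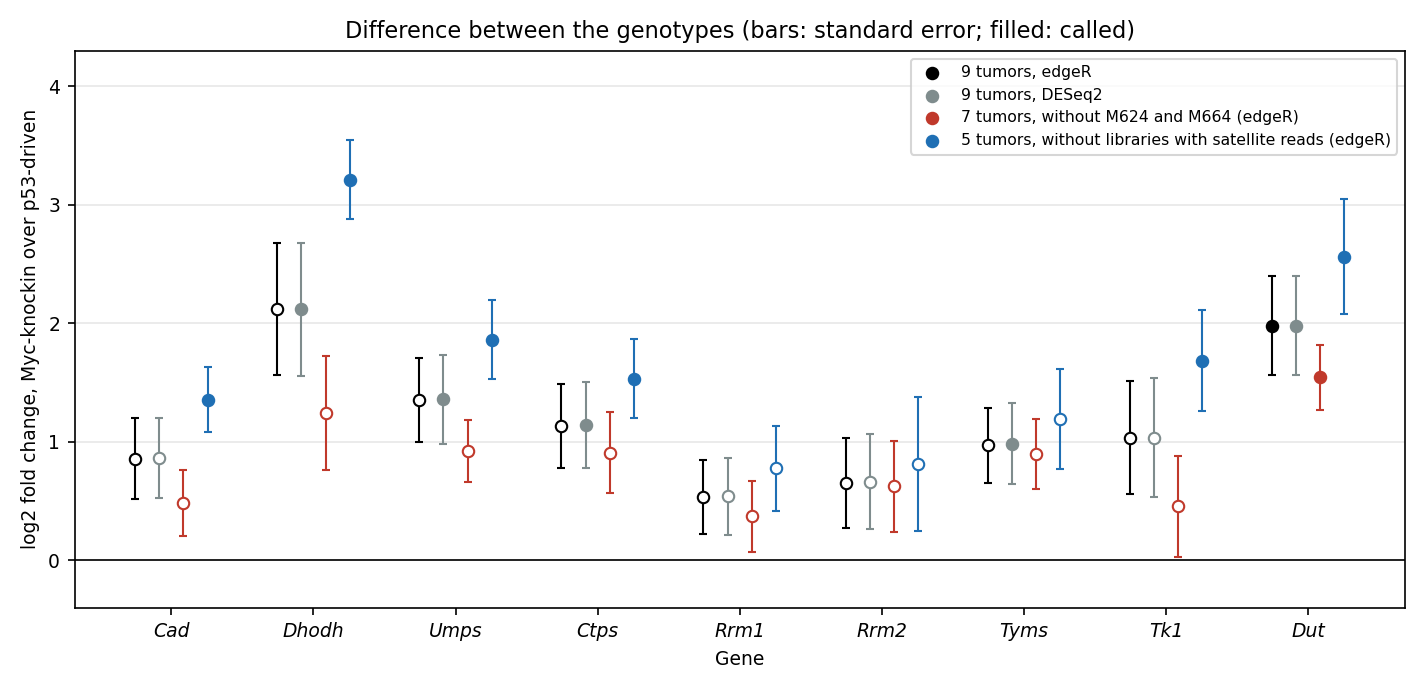
Log2 fold change of each gene, Myc-knockin over p53-driven, with bars for the standard error and filled points for genes called, from edgeR and DESeq2 on 9 tumors and from edgeR without M624 and M664 and without the 4 libraries with satellite reads. All points lie above 0, and Dut is filled in each of the 4 fits, with values from 1.54 to 2.56.

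The number of members called depended on the test and on the tumors kept. DESeq2 called Dhodh, Umps, Ctps, Tyms and Dut (10.1% of genes higher), and limma-voom with quality weights called Dhodh, Umps and Dut (4.32%). Upper-quartile scaling gave Dhodh, Umps, Ctps and Dut (4.07%), and subtraction of the background gave Umps, Ctps and Dut (4.29%). A filter of at least 10 counts in every tumor gave Dhodh, Umps, Ctps, Tyms and Dut (8.46%). Dut alone was called after the satellite genes were left out (1.56%), and likewise when every gene with a read entered the fit (0.457%). With library size as the only scaling, edgeR called no member (0.325%), with 2 at an unadjusted p under 0.05. With F187, F325, F331 or F368 left out, edgeR called no member (0.806%, 0.0124%, 0% and 0% of genes higher), with 5 or 6 at an unadjusted p under 0.05. With M408, M624, M351, M9 or M664 left out it called 2, 1, 2, 5 and 1 members (2.7%, 1.13%, 1.17%, 6.03% and 1.9%). Rrm1 and Rrm2 were not called in any of these fits.

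Levels can be compared between genes only per length, and CPM per kilobase of each gene's principal transcript is used for that. Averaged over 9 tumors, Dut had 24.5, Rrm2 23.5, Rrm1 22.9 and Ctps 22.3 CPM per kilobase. Neighbors in this order did not differ beyond the spread, since Dut was above Rrm2 in 4 of 9 tumors, Rrm2 above Rrm1 in 5 and Rrm1 above Ctps in 5. Cad followed at 15.9, below Ctps in 8 of 9 tumors, then Tk1 at 13.0, Umps at 11.0, Tyms at 7.31 and Dhodh at 6.18 CPM per kilobase. By group mean, Dut ranked 5 in the p53-driven tumors, with 9.35 ± 2.46 CPM per kilobase (SD, n = 4). It ranked 1 in the Myc-knockin tumors, with 36.6 ± 23.1 (SD, n = 5). That mean was raised by M624 at 77.6, while M351, M408, M9 and M664 had 26.2, 29.8, 22.1 and 27.5. In M351 and M408 Ctps was above Dut, at 28.4 and 31.5 CPM per kilobase. Rrm1 led in the p53-driven tumors with 18.3 ± 4.58 CPM per kilobase (SD, n = 4). With the union of all annotated exons as the length, Rrm1 ranked 6, because its union is 11012 bases against 3997 in the principal transcript.

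Each member was also set against 32 genes of DNA replication in the same tumor, among them the MCM helicase subunits, Pcna and the replication factor C subunits. Of the 31 tested, 8 were called higher and 0 lower, where 2.26% and 3% of all genes tested were. Their median log2 fold change of 1.30 exceeded the 1.04 of the members and the 0.14 of all genes tested. Single genes of this S-phase list had log2 fold changes from 0.30 to 2.20, a range that holds the 1.98 of Dut. The mean log2 CPM of the list was 3.72 ± 0.30 (SD, n = 4) in the p53-driven and 4.77 ± 0.64 (SD, n = 5) in the Myc-knockin tumors. Relative to it, Dut was 0.34 to 0.65 log2 units above the list in the p53-driven tumors and 1.03 to 1.44 above it in the Myc-knockin tumors, without overlap. That difference of 0.78 had the smallest p the design allows (two-sided exact permutation test, p = 0.0159), which becomes 0.143 after adjustment over 9 members, so no member could have passed alone. Dhodh differed by 0.78 (two-sided exact permutation test, p = 0.0952, 0.286 after adjustment), and Rrm1 by -0.56 (exact permutation p = 0.0794, 0.286 after adjustment). The other 6 members differed by -0.33 to 0.17 between the genotypes once the S-phase level of the tumor was taken off, and 0 of 9 passed.

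**Figure D3:**
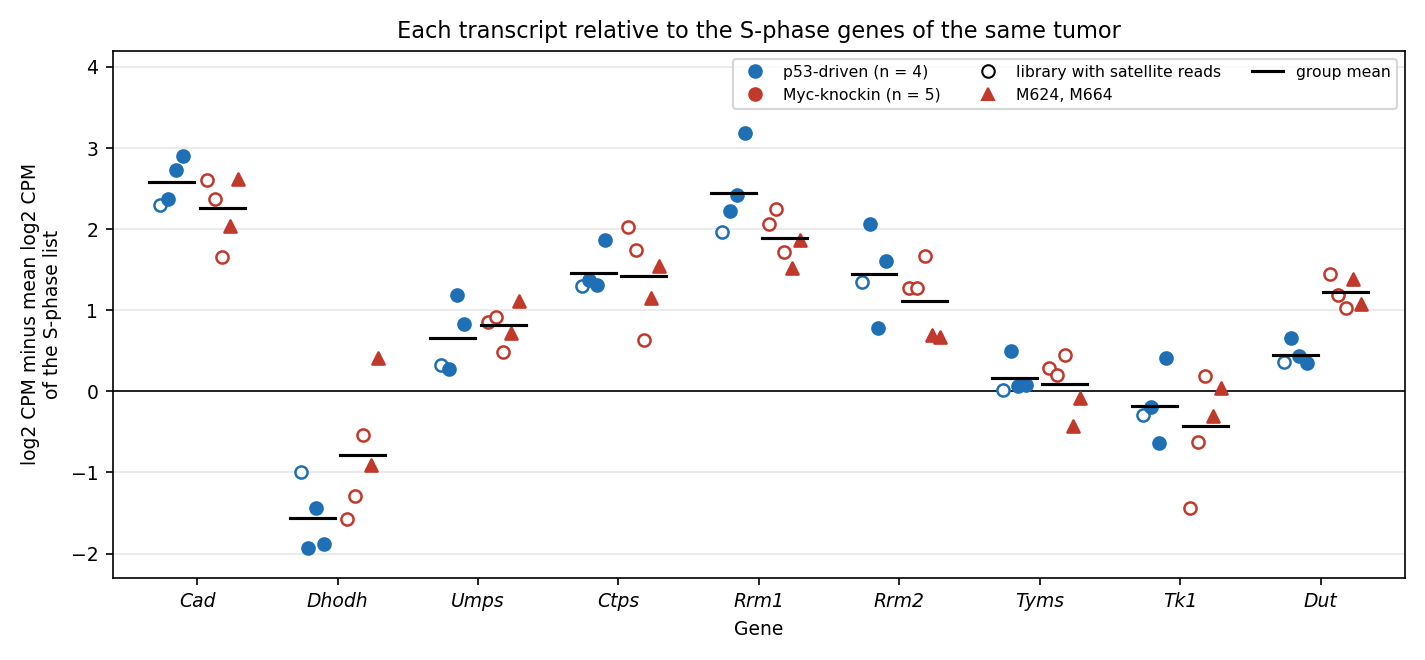
Log2 CPM of each gene minus the mean log2 CPM of the S-phase list in the same tumor, with the colors and symbols of the plot of CPM by tumor. Dut separates, at 0.34 to 0.65 in the 4 p53-driven tumors and 1.03 to 1.44 in the 5 Myc-knockin tumors, and the other genes overlap.

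Other genes of the same metabolism were read from a list of 45, of which 38 were tested. In the Myc-knockin tumors 6 of the 38 were called higher and 0 lower, where 2.26% and 3% of all genes tested were. The log2 fold change was above 0 in 27 of the 38 and in 8629 of all 15365 genes, with medians of 0.69 and 0.14. The genes that supply and protect thymidylate held 3 of the 6 calls among 4 genes tested. Shmt1, the cytosolic enzyme that loads folate with the carbon that TYMS transfers, had 4.34, 3.81, 5.97 and 5.11 CPM in F187, F325, F331 and F368. It had 41.2, 55.3, 19.1, 149 and 55.6 CPM in M351, M408, M9, M624 and M664, so that the lowest Myc-knockin tumor was above the highest p53-driven tumor (log2 fold change 3.74, standard error 0.56, edgeR adjusted p = 0.0175). Dctpp1, which removes abnormal dCTP, had 2.37 to 4.13 CPM in the p53-driven and 4.78 to 109 CPM in the Myc-knockin tumors (log2 fold change 3.67, standard error 0.76, edgeR adjusted p = 0.0287). Its lowest Myc-knockin value, in M9, rests on 6 reads. Dctd, which deaminates dCMP to the dUMP that TYMS uses, had 4.50 to 8.29 and 21.1 to 47.3 CPM (log2 fold change 2.31, standard error 0.36, edgeR adjusted p = 0.0178).

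The remaining 3 calls fell in other branches. Uck2, a kinase that salvages uridine and cytidine, had 45.4, 57.5, 35.8 and 26.5 CPM in F187, F325, F331 and F368 and 70.8, 183, 59.8, 193 and 125 CPM in M351, M408, M9, M624 and M664 (log2 fold change 1.62, standard error 0.41, edgeR adjusted p = 0.0478). It was 1 of 8 salvage genes tested. Prps1, which makes the activated ribose that UMPS attaches to orotate, had 15.8 to 33.2 and 35.9 to 89.2 CPM (log2 fold change 1.41, standard error 0.33, edgeR adjusted p = 0.0386) and was 1 of 4 genes of that supply. Nme4, a nucleoside diphosphate kinase of mitochondria, had 2.19 to 6.32 and 6.37 to 41.0 CPM (log2 fold change 2.51, standard error 0.60, edgeR adjusted p = 0.0405). Its highest p53-driven tumor, F187, and its lowest Myc-knockin tumor, M9, were almost level. It was 1 of 7 nucleotide kinases tested. Without M624 and M664, none of Uck2, Prps1 and Nme4 was called, while Shmt1, Dctpp1 and Dctd were. Uck2 was also not called by limma-voom. No gene of the pathway list was called when F325, F331 or F368 was left out. None of the 7 breakdown genes tested or of the 6 transporters tested was called by edgeR in the fit of all tumors, with median log2 fold changes of 0.58 and 0.53. Among the transporters, Slc29a2, which carries nucleosides across the cell membrane, had 0.933 to 5.53 and 3.85 to 29.7 CPM and missed the threshold narrowly (log2 fold change 2.84, standard error 0.74, edgeR adjusted p = 0.0501). It was called higher by DESeq2, by limma-voom and by edgeR with upper-quartile scaling or with the background subtracted. So it was by edgeR with all genes of at least 1 count and with at least 10 counts in every tumor. The same call came without the 4 satellite libraries and when F187, M408 or M9 was left out. Slc29a2 was not called with library size alone, with the satellite genes left out, or without M624 and M664. Nor was it when F325, F331, F368, M624, M351 or M664 was left out. Slc29a3, a nucleoside carrier of lysosomes, had 36.5 to 46.6 and 13.6 to 32.1 CPM (log2 fold change -0.95, standard error 0.29, edgeR adjusted p = 0.0704). DESeq2 and limma-voom called it lower, as did edgeR without M624 and M664 and without M664 alone. In 8 of the 38 the groups were apart with Myc-knockin higher, and in 2, Cmpk1 and Slc29a3, with Myc-knockin lower, where the shares of all genes tested were 5.41% and 7.54%.

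**Figure D4:**
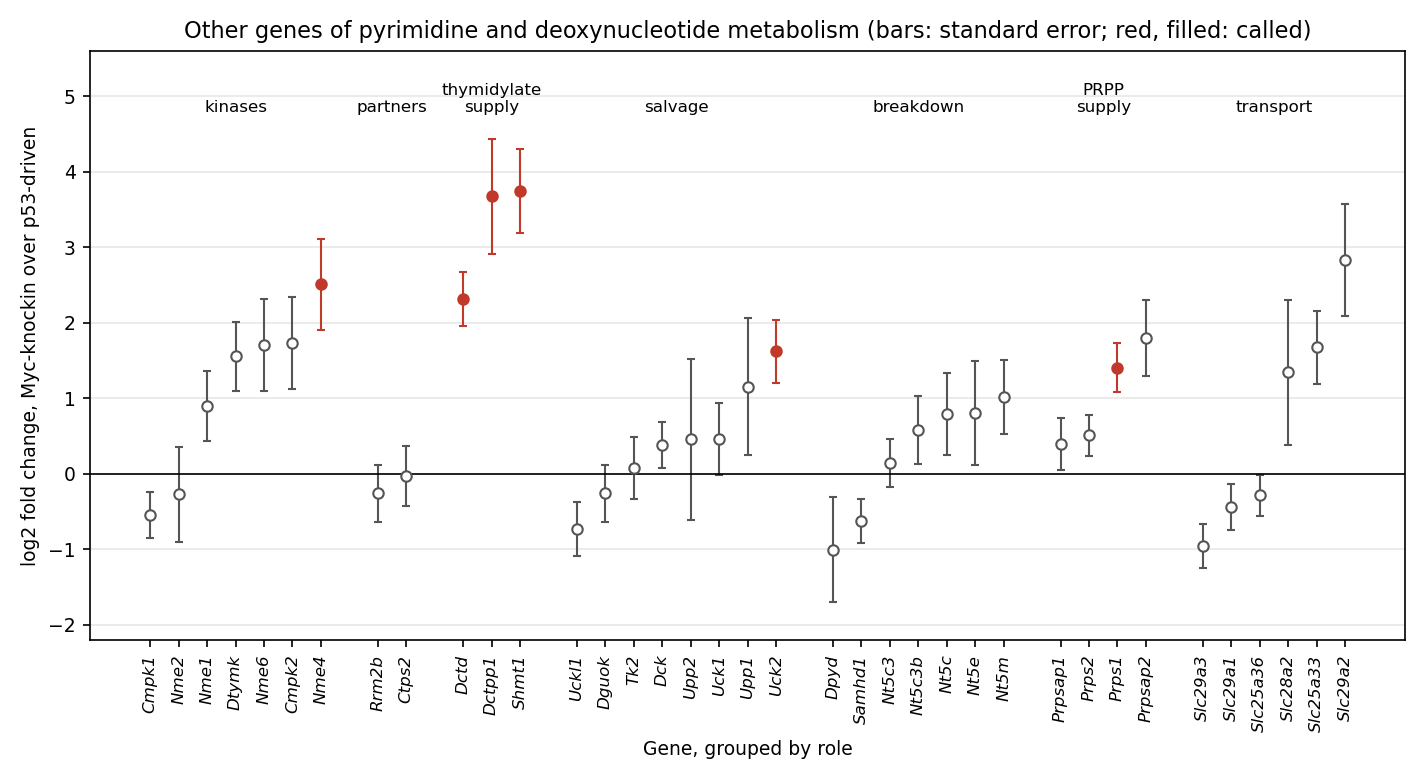
Log2 fold change, Myc-knockin over p53-driven, of 37 of the 38 other genes tested of pyrimidine and deoxynucleotide metabolism grouped by role, with bars for the standard error and red filled points for the 6 genes called. The 3 called genes of thymidylate supply lie at 2.31 to 3.74, and the partners Rrm2b and Ctps2 lie at -0.26 and -0.03.

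The transcription factors and cell-cycle genes that are known to act on these enzymes were read from a list of 11. Myc was called (log2 fold change 3.41, standard error 0.59, edgeR adjusted p = 0.0217), and the other 10 were not. Nearest the threshold among these was Ccnf, at 1.31 on the log2 scale (standard error 0.37, edgeR adjusted p = 0.0620). It had 9.48 to 15.7 CPM in the p53-driven and 17.2 to 50.3 CPM in the Myc-knockin tumors. Among these 10, Ccnf alone had the groups apart with Myc-knockin higher, against 5.41% of all genes tested. The groups were apart for Myc too, but Myc is the gene altered in the knockin, so its difference comes with the design. Fzr1 had 0.47 (standard error 0.38, edgeR adjusted p = 0.459) and Trp53 0.58 (standard error 0.60, edgeR adjusted p = 0.569). Of the 5 E2F genes, E2f2 had 1.47 (standard error 0.50, edgeR adjusted p = 0.0970), E2f7 1.39 (standard error 0.45, edgeR adjusted p = 0.0843) and E2f1 0.49 (standard error 0.48, edgeR adjusted p = 0.544) on the log2 scale. E2f8 had 1.42 (standard error 0.58, edgeR adjusted p = 0.150) and E2f3 0.22 (standard error 0.36, edgeR adjusted p = 0.733). Cdkn1a, the cell-cycle inhibitor that p53 induces, had -0.82 (standard error 0.37, edgeR adjusted p = 0.185), and Mdm2, which p53 also induces, had 0.18 (standard error 0.40, edgeR adjusted p = 0.805).

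The members followed one another across tumors to different degrees. Over 9 tumors Pearson's r of log2 CPM ran from 0.48 for Cad and Rrm2 to 0.95 for Cad and Ctps, with 0.95 also for Tyms and Dut and 0.58 for the 2 reductase subunits. These values describe 9 libraries that share their depth and background, and genotype is part of them. Among 9431 other genes with a mean of at least 10 CPM, those most like the mean log2 CPM of the members were Anp32b (r = 0.984), Timeless (0.984), Nup85 (0.983), Prpf4 (0.982) and Snrnp40 (0.976). With the group means taken off, their r was 0.93 to 0.97. None of the 5 was called between the genotypes, with edgeR adjusted p from 0.0509 to 0.0902.

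Markers of several cell types in these tumors also differed between the genotypes. All 9 osteoblast markers had enough reads to be tested, among them Runx2, Sp7 and Col1a1, and they summed to 65131 to 141163 CPM in the p53-driven and 3610 to 41257 CPM in the Myc-knockin tumors, with 2 of 9 called lower, Bglap and Bglap2, which reached 0 CPM in the lowest Myc-knockin tumors. Col1a1 and Col1a2, which were not called, made up 91.2% to 97.6% of that sum in the p53-driven and 62.8% to 90.4% in the Myc-knockin tumors. Without these collagens the other 7 markers summed to 3297 to 7217 and 348 to 5313 CPM, and the groups overlapped. Leukocyte markers summed to 414.6 to 803 and 124 to 341 CPM (1 of 6 called lower), macrophage markers to 626 to 1131 and 111 to 312 CPM (3 of 5 lower), and osteoclast markers to 2582 to 13528 and 109 to 2540 CPM (4 of 6 lower). Of all genes tested, 3% were called lower and 2.26% higher. The leukocyte markers did not all go the same way. Coro1a had 4.84 to 6.81 and 6.37 to 33.6 CPM (log2 fold change 1.29, standard error 0.52, edgeR adjusted p = 0.146). Cd53 was nearly level (log2 fold change -0.11, standard error 0.46, edgeR adjusted p = 0.907). Endothelial markers summed to 316 to 446 and 75.7 to 395 CPM with 0 of 5 called by edgeR, and muscle markers to 9.08 to 3725 and 2.29 to 1544 CPM with 0 of 5 called. Lymphocyte markers summed to at most 13.5 CPM, too little to be tested, and marrow precursor markers to at most 11.6 CPM. Erythroid markers summed to 3.55 to 14.2 and 7.17 to 783 CPM, and only Alas2 had enough reads to be tested and was not called. The globin genes Hba-a1 and Hbb-bs were at 0 CPM in the p53-driven tumors. In the Myc-knockin tumors they reached 388 and 347 CPM, but their medians were 0 and 0.80 CPM. The part of cell composition in the values of the 9 enzymes was not tested.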

How the data were processed

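Whole tumors of 4 p53-driven and 5 Myc-knockin mice were profiled by RNA-Seq. According to the study's methods, libraries were made with a stranded kit after oligo-dT enrichment and sequenced in pairs. The authors used trimGalore for trimming, STAR with the mm10 genome for alignment and featureCounts for counting, and deposited raw read counts of 55367 genes that are not normalized. The study names a trimGalore commit. The versions of STAR and featureCounts, the strand setting and the handling of reads with several positions are not given in the sources used here. Columns were assigned to a group by their names: F187, F325, F331, F368, M408 and M624 stand under a genotype in the study's supporting data, and M351, M9 and M664 were placed by the letter M. No column is tied to a numbered sample. The labels do not say whether tumors came from separate litters or days, so p-values measure the spread between these tumors.

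Counts were tested with edgeR 4.0.16 in R 4.3.3 (filterByExpr with a minimum count of 10, TMM, glmQLFit and glmQLFTest), with Benjamini-Hochberg adjustment over 15365 genes, and calls were made at an adjusted p below 0.05 with a fold difference above 1.5. DESeq2 1.42.0 and limma 3.58.1 (voom with quality weights) were alternatives, beside other scalings, filters, background subtraction and tumors left out. A prior count of 2 entered log2 CPM. Single measures within tumors were compared by two-sided exact permutation tests over 126 arrangements with scipy 1.17.1. Gene positions and lengths came from GENCODE M21, which holds 55111 of the table's genes, and promoter windows from RefSeq. Background was the count per kilobase of exon on 2015 chemosensory receptor genes. The scripts were tested on simulated data with the spread of these libraries. In that simulation 2-fold changes were seldom recovered, so a gene that was not called may still differ. Total counts were 2716322 to 17073285 per tumor, and the floors of 3 counts cover counting error only.

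The members, the gene lists and the alternatives were chosen with earlier results of these data known. The genes named are the 9 members, the genes of the pathway and regulator lists that were called or served in a ratio, and the 5 genes most like the members. Cmpk1, Slc29a2, Slc29a3, the E2F genes, Ccnf, Fzr1, Trp53, Cdkn1a, Mdm2, Coro1a and Cd53 were named after their values were seen. Taking background reads off single values and leaving the collagens out of the osteoblast sum were also chosen after seeing the data. The values of 1 gene of the pathway list are not reported here, although it is in the counts.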

Additional observations from a re-analysis of the deposited data

Results flagged for a closer look

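Of 44 groups of tumor values examined with Dixon's criterion for a value apart from its group, 6 held one, where chance gives about 1 in 20. For Ctps, F331 was the lowest of the 4 p53-driven tumors with 27.3 CPM, while the other 3 lay between 39.5 and 39.8. For Dut, M624 was the highest of the 5 Myc-knockin tumors with 151 CPM, and the next was at 58.1. M624 also had the highest log2 ratio of Tk1 to Tk2 among the Myc-knockin tumors, 2.48, where the others had 0.62 to 1.09. The log2 ratio of Ctps to Ctps2 was lowest among the Myc-knockin tumors in M9, at 0.11, where the next was at 2.12. Relative to the S-phase list, Ctps stood highest among the p53-driven tumors in F368, at 1.86 on the log2 scale. Tyms stood highest there in F325, at 0.50.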

How the results depend on the processing

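The log2 fold changes of all 9 members were above 0 in every alternative run, and the number called was not stable. From 1 member, 809 genes and 6 pathway genes, DESeq2 gave 5, 2670 and 14, limma-voom 3 members and 1663 genes, upper-quartile scaling 4 members, library size alone 0, 136 and 1, and at least 10 counts in every tumor 5 members and 1316 genes. Subtraction of the background gave 3 members, all genes with at least 1 count gave 494 genes, and leaving out the 4 libraries with satellite reads gave 6, 4595 and 17. When single tumors were left out, the members called ranged from 0 to 5, the genes from 5 to 1588 and the pathway genes from 0 to 9. The lowest counts came without F325, F331 or F368, with 8, 6 and 5 genes, and the highest without M9. The cause was not tested. The median log2 fold change of all genes moved from 0.14 to 0.24 with upper-quartile scaling, 0.03 with library size alone and -0.04 with limma-voom. With every gene of at least 1 count it was 0.97, against 1.05 for the members.

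Relative to the S-phase list, 3 differences near 0 changed sign. Ctps went from -0.04 to 0.048 with the background subtracted and to 0.0077 without M624 and M664, and from -0.19 to 0.15 with single tumors left out (above 0 without F368, M624 or M9). Tyms went from -0.08 to 0.14 without M624 and M664, and from -0.17 to 0.045 with single tumors left out (above 0 without F325 or M624). Tk1 went from -0.25 to 0.0093 without the 4 libraries with satellite reads, and from -0.40 to 0.0059 with single tumors left out (above 0 without M351). The number of tumors did not allow a single ratio or S-phase difference to pass after adjustment, so these tests say nothing of stability.

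No paired analysis was possible because the columns of the count table carry no replicate numbers. Neither the sample labels nor the paper describes matched pairs of p53-driven and Myc-knockin tumors, so no known pairing was left untested. Depth limits genes with few reads in the satellite libraries, such as Dctpp1 with 6 in M9 and in F187, Nme4 with 8 in M9, and Dhodh and Tk1 with 10 and 11 in M351.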
